A study of Caenorhabditis elegans with 24 samples.

Results

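The genes described are 9 that code for RNA-binding proteins acting on splicing: hrp-1, hrp-2, sup-12, etr-1, exc-7, unc-75, fox-1, asd-1 and mec-8. They were chosen by name, 9 genes of the 45642 listed for poly(A) RNA, and the rule itself uses no measured value. All 9 were listed for poly(A) RNA. Of these, 8 were also listed for RNA immunoprecipitated with the J2 antibody (J2-IP), which binds double-stranded RNA, and for input RNA. Each of those lists held 8783 genes. The exception was sup-12, which is in neither of those lists, so only its poly(A) level is described.

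The series asked how loss of TDP-1, the worm ortholog of the RNA-binding protein TDP-43, changes RNA in Caenorhabditis elegans. Animals of strain tdp-1(ok803), which carry a deletion allele of tdp-1, were set against wild-type N2 animals. Poly(A) RNA came from whole L4 larvae kept at 20°C, with 3 libraries labelled tdp-1(ok803) and 3 wild-type libraries. J2-IP RNA came from lysates of whole young adults kept at 15°C, with 3 independent lysates of each genotype, and 1 input library was made for each genotype. Stage, temperature and library kit all differ between the assays, so their effects on a difference between assays cannot be told apart. In whole animals, fewer cells of a type and less RNA per cell cannot be told apart either.

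Heterogeneous nuclear ribonucleoproteins (hnRNPs) coat nascent transcripts and steer the choice of splice sites, export and stability of most mRNAs, and TDP-43 is itself counted among them. Tissue-specific splicing regulators act in a subset of cells, where they bind short intronic motifs and include or skip particular exons of muscle, neuronal or epidermal genes. HRP-1 (hrpa-1 in RefSeq, sequence name F42A6.7) belongs to the human hnRNP A family and HRP-2 (hrpr-1 in RefSeq, F58D5.1) to the hnRNP R and Q family. SUP-12 is a muscle regulator of the RBM24 family. ETR-1 and UNC-75 are CELF proteins, ETR-1 known for its role in muscle and UNC-75 in neurons, and EXC-7 is the ELAV/Hu protein of the excretory canal and neurons. FOX-1 and ASD-1 are the RBFOX proteins, and MEC-8 has roles in touch neurons and the epidermis. By the RefSeq annotation of assembly WBcel235, exc-7, asd-1 and mec-8 overlap a protein-coding neighbour (wee-1.1, pelo-1 and C17E4.10). The poly(A) kit is not stated to have been counted by strand, so reads of these 3 genes and of their neighbours cannot be told apart there.

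Normalized counts of tdp-1, the targeted gene, were 915, 3542 and 3478 in the mutant-labelled poly(A) libraries, against 2156, 3501 and 4322 in wild type. Only replicate 1 of the mutant lay below all wild-type libraries, and replicates 2 and 3 lay within the wild-type range. The count covers the whole gene, including sequence outside a deletion, so it does not check the label, and directions below are those of libraries labelled tdp-1(ok803). In input RNA the tdp-1 value was 12 in the mutant library and 38 in the wild-type library, a ratio of 0.316. In J2-IP, tdp-1 was at 53, 61 and 50 in tdp-1(ok803), against 27, 27 and 25 in wild type, a log2 difference of 1.02 (SE 0.10, adjusted p = 2.8e-04 by limma) that turned to -0.59 when mutant values were multiplied by the input ratio. The targeted gene thus stood higher in the deposited J2-IP values of the mutant. Poly(A) depth was 65546397 to 107297985 reads per library. Replicate 1 of both genotypes stood apart from the other 4 poly(A) libraries on the first principal component, which held 55.6% of the variance, so poly(A) results are also given over replicates 2 and 3. The J2-IP values summed to 1332125 to 1387056 in tdp-1(ok803) and to 1046152 to 1065849 in wild type.

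In poly(A) RNA none of the 9 genes passed an adjusted p of 0.05 between genotypes (limma with Benjamini-Hochberg adjustment). The genotypes overlapped for all 9 genes, while they did not overlap for 7.91% of all genes. Of all 15807 genes tested, 0 passed (0%), and 413 had an unadjusted p under 0.05 (2.61%), none of them among the 9. The log2 differences (mutant minus wild type, with 1 added to each value; SE is the standard error) of the 9 genes lay between -0.15 (exc-7) and 0.16 (fox-1), with a median of 0.03 against -0.02 over all genes, and their adjusted p-values were all 1.00. In the plot of poly(A) counts the 3 mutant libraries of the hnRNP gene hrp-1 lie farthest apart relative to their mean.

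For hrp-1 the normalized counts were 28837, 12891 and 13009.7 in the mutant-labelled libraries, against 18086, 18183 and 18074 in wild type. The wild-type libraries were nearly equal, mutant replicate 1 lay above all of them and mutant replicates 2 and 3 lay below all of them. The means were 18246 ± 9173 in mutant and 18114 ± 59.6 in wild-type animals (SD, n = 3 each), and the log2 difference was -0.10 (SE 0.34, adjusted p = 1.00 by limma). For hrp-2 the counts were 23951, 16963 and 19665 in the mutant-labelled libraries, against 14442, 20892 and 25126 in wild type. Here the genotypes overlapped throughout, but again the mutant exceeded wild type in replicate 1 and lay below it in replicates 2 and 3. The log2 difference of hrp-2 was 0.03 (SE 0.28, adjusted p = 1.00 by limma).

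**Figure D1:**
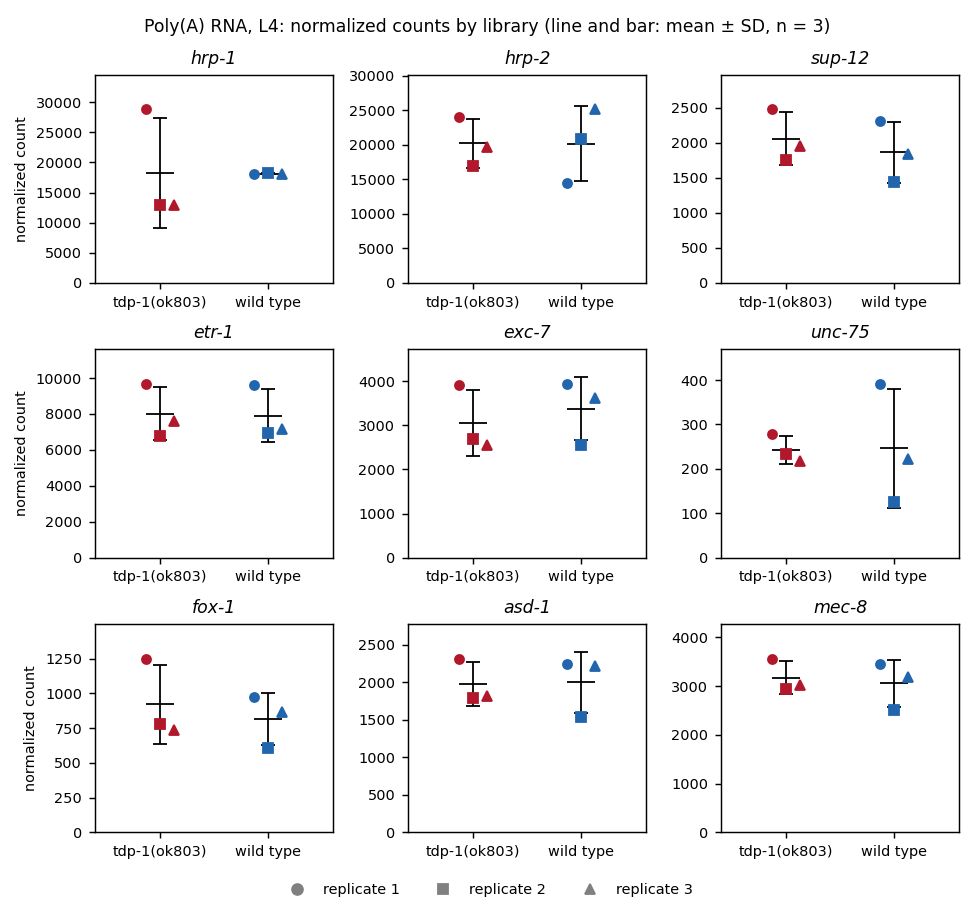
Normalized counts of the 9 genes in poly(A) RNA of L4 larvae, with the 3 libraries labelled tdp-1(ok803) on the left (red) and the 3 wild-type libraries on the right (blue) of each panel. Symbols mark the replicate number, and the line and bar are the mean ± SD. Mutant replicate 1 of hrp-1 stands at 28837, above wild-type libraries between 18074 and 18183, and the genotypes overlap in all 9 panels.

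Libraries with the same replicate number deviated together, so the genotypes were also compared number by number, although pairing by number was not shown. The mutant-to-wild-type ratio of hrp-1 was 1.59 in replicate 1, 0.709 in replicate 2 and 0.720 in replicate 3. That of hrp-2 was 1.66 in replicate 1, 0.812 in replicate 2 and 0.783 in replicate 3. These were the only members higher in replicate 1 and lower in both other replicates, an order of signs held by 2808 of the 15807 genes tested (17.8%). In replicate 1 the ratio of hrp-1 lay at the 90.7th percentile of all genes and that of hrp-2 at the 92.1st percentile. A term for the genotype effect in replicate 1 minus that in replicates 2 and 3, chosen after these values were seen, was 1.16 for hrp-1 (SE 0.29, unadjusted p = 0.0036, adjusted p = 0.12 by limma). For hrp-2 it was 1.06 (SE 0.33, unadjusted p = 0.011, adjusted p = 0.17 by limma). Neither passed an adjusted p of 0.05, which 8 genes did (0.0506%), while 2620 genes (16.6%) had an unadjusted p under 0.05.

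Over replicates 2 and 3 alone, hrp-1 had a log2 difference of -0.49 (limma adjusted p = 0.13) and hrp-2 one of -0.33 (limma adjusted p = 0.34). The other 7 genes lay between -0.22 (exc-7) and 0.43 (unc-75). No member passed there, where 685 of 15284 genes did (4.48%). The block for replicate number changed no member's call. The summed counts of 7 germline markers (7 of 7 listed, none at 0) had the same order of signs as both hnRNP genes, as did those of 7 body wall muscle markers given below. The germline sums were 73891, 49647 and 63544 in the mutant-labelled libraries, against 44960.2, 91643 and 134345 in wild type. Other marker sums did not have that order. Those of 6 intestine markers were 342400, 219265 and 253391 in the mutant-labelled libraries, against 353149, 529491 and 592344 in wild type. These intestine sums, and those of 5 epidermis markers given below, were lower in the mutant in all 3 replicates. The part of germline or muscle signal in the hrp-1 and hrp-2 values was not tested.

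The other 7 genes, the tissue-specific regulators, had their highest count in replicate 1 of both genotypes. That held for sup-12, etr-1, exc-7, unc-75, fox-1, asd-1 and mec-8, and for 4633 of the 15807 genes tested (29.3%). The summed counts of 7 body wall muscle markers were 1184130.3, 582326 and 647245 in the mutant-labelled libraries, against 1148316, 672282 and 1042462 in wild type. Those of 10 neuronal markers were 70711, 47943 and 51105 in the mutant-labelled libraries, against 72399, 37702 and 46877 in wild type, where unc-10 was at 0 in 1 mutant and 2 wild-type libraries. Both sums were also highest in replicate 1 of each genotype. So was that of 5 epidermis markers, with 285636, 178308 and 181446 in the mutant-labelled libraries, against 294950, 192028 and 245001 in wild type. The order is thus not particular to muscle and neurons, though germline and intestine sums did not have it in wild type. The part of these tissues in the counts of the 7 genes was not tested.

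The muscle regulators sup-12 and etr-1 were close between genotypes. For sup-12 the counts were 2478, 1752 and 1951 in the mutant-labelled libraries, against 2306, 1439 and 1840.0 in wild type. It was higher in the mutant in all 3 pairs of libraries, by ratios of 1.06 to 1.22, yet the genotypes overlapped and the log2 difference of 0.16 (SE 0.27) did not pass (limma adjusted p = 1.00). The etr-1 ratios were 1.01, 0.978 and 1.06, the narrowest range among the 9 genes.

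The neuronal regulator unc-75 had the widest spread between pairs of libraries. Its counts were 279, 233 and 218 in the mutant-labelled libraries, against 391, 126 and 221 in wild type, so that the wild-type range enclosed the mutant one. The ratio by replicate ran between 0.712 and 1.85. For exc-7, which serves the excretory canal and neurons, the ratios were 0.995, 1.05 and 0.702. The RBFOX gene fox-1 had 1249.9, 781 and 734 in the mutant-labelled libraries, against 971, 605 and 869.7 in wild type, higher in replicates 1 and 2 and lower in replicate 3. Its paralog asd-1, with ratios of 1.03, 1.17 and 0.818, and mec-8, with ratios of 1.03, 1.17 and 0.944, had the same order of signs.

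**Figure D2:**
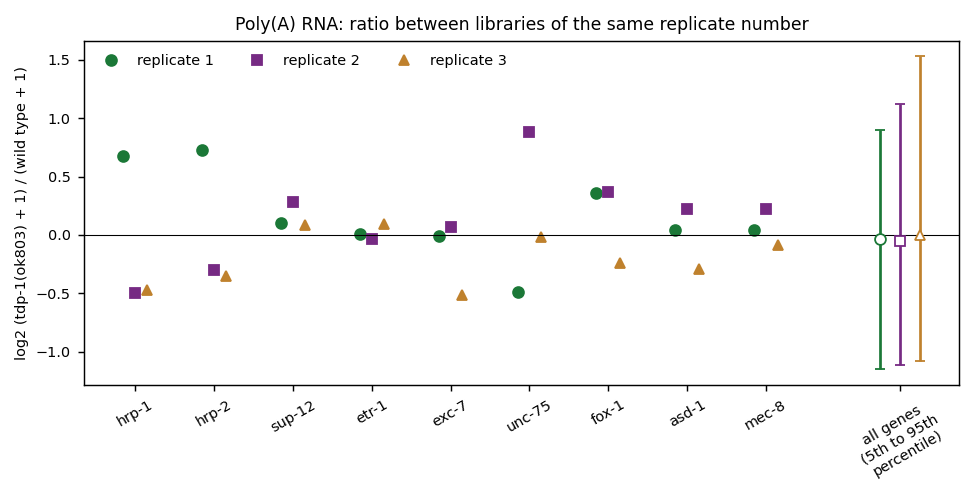
Log2 ratio of the library labelled tdp-1(ok803) over the wild-type library of the same replicate number in poly(A) RNA, after adding 1 to both counts. Filled symbols are the 9 genes, and open symbols with bars are the median and the 5th to 95th percentile of the 15807 genes tested. For hrp-1 and hrp-2 replicate 1 lies above 0 and replicates 2 and 3 below it, and all members lie within the bars of their replicate.

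Of the 9 genes, sup-12 had the lowest p of the poly(A) test (unadjusted p = 0.58). The genes most like it in log2 count over the 6 libraries were ccb-1, egl-21 and ztf-27, with Pearson's r of 0.996, 0.996 and 0.994, as a description. Within the set, mec-8 (r = 0.96) and fox-1 (r = 0.92) were closest to sup-12 and hrp-2 was farthest (r = -0.10). The points share the libraries, replicate 1 included.

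The J2-IP asks which of these transcripts were recovered with double-stranded RNA. With the values as deposited, 5 of the 8 genes differed between genotypes at p under 0.05 and adjusted p under 0.1 (limma): hrp-1, asd-1, mec-8 and hrp-2 were higher and unc-75 was lower in tdp-1(ok803). Over all 7767 genes tested, 54.4% passed, 48.3% higher and 6.12% lower, so a share of 5 in 8 is near that of all genes. The median log2 difference of the 8 genes was 0.25, as was that of all genes. Differences are therefore also given from the median of all genes, and under scalings that move that median. It was 0.25 as deposited, -0.09 with library totals made equal and 0.0022 with median-of-ratios scaling.

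As deposited, the largest difference among the 8 genes was that of hrp-1. Its J2-IP values were 345, 324 and 338 in tdp-1(ok803), against 186, 159 and 165 in wild type. Every mutant library exceeded every wild-type library, as was true in either direction of 53.5% of the genes tested. The means were 336 ± 10.7 in mutant and 170 ± 14.2 in wild-type J2-IP (SD, n = 3 each), a log2 difference of 0.98 (SE 0.08, adjusted p = 1.6e-04 by limma). That is 0.73 above the median of all genes and at their 96.4th percentile. The difference passed with equal totals (0.62, adjusted p = 0.0016) and with median-of-ratios scaling (0.72, adjusted p = 5.9e-04). Leaving out any 1 library gave 0.93 to 1.05, and hrp-1 passed each time.

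For asd-1, an RBFOX gene, the J2-IP values were 74, 72 and 69 in tdp-1(ok803), against 54, 47 and 54 in wild type, with no overlap. The log2 difference was 0.47 (SE 0.08, adjusted p = 0.0033 by limma), which is 0.22 above the median of all genes. It passed with median-of-ratios scaling (0.21, adjusted p = 0.024) and not with equal totals (0.11, adjusted p = 0.40). Its paralog fox-1 had 14, 18 and 14 in tdp-1(ok803), against 15, 15 and 19 in wild type. Those values overlapped (log2 difference -0.09, SE 0.14, adjusted p = 0.65 by limma), and fox-1 passed as lower only after scaling, at -0.42 with equal totals and -0.33 by median-of-ratios.

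For mec-8 the J2-IP values were 33, 38 and 40 in tdp-1(ok803), against 30, 30 and 32 in wild type, and for hrp-2 they were 140, 139 and 119 in tdp-1(ok803), against 114, 103 and 121 in wild type. The mec-8 values did not overlap and the hrp-2 values did. Both passed as deposited, mec-8 at 0.26 (SE 0.10, adjusted p = 0.057 by limma) and hrp-2 at 0.23 (SE 0.09, adjusted p = 0.074 by limma), within 0.02 of the median of all genes. Neither passed under either scaling. With equal totals mec-8 turned to -0.09 and hrp-2 to -0.12, and with median-of-ratios scaling they were 0.0092 and -0.02. The call of mec-8 was lost without wild-type replicate 1 or 2 or mutant replicate 2 or 3 (limma adjusted p = 0.15, 0.13, 0.14 and 0.13). That of hrp-2 was lost without wild-type replicate 1 or 2 or mutant replicate 1 or 2 (limma adjusted p = 0.15, 0.21, 0.19 and 0.19). The CELF gene etr-1 had 94, 85 and 71 in tdp-1(ok803), against 70, 61 and 77 in wild type, with overlap. Its log2 difference of 0.26 (SE 0.13) did not pass (limma adjusted p = 0.13), did so without mutant replicate 3 (0.37, limma adjusted p = 0.044), and was -0.09 with equal totals.

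The neuronal gene unc-75 was lower in the mutant, unlike most genes. Its J2-IP values were 14, 20 and 13 in tdp-1(ok803), against 19, 20 and 22 in wild type. Mutant replicate 2 lay within the wild-type range and the other mutant libraries lay below it. The log2 difference was -0.38 (SE 0.16, adjusted p = 0.092 by limma), and the call was lost without wild-type replicate 1, 2 or 3 or mutant replicate 1 or 3 (limma adjusted p = 0.14, 0.17, 0.23, 0.24 and 0.24). It was also lost with 10 added to each value (limma unadjusted p = 0.05, adjusted p = 0.092) and without the filter on low values (limma adjusted p = 0.13). The same held with a filter on enrichment over wild-type input, like the study's but without its test (limma adjusted p = 0.12). It was 0.63 below the median of all genes, at the 4.57th percentile, and passed with equal totals, where it was larger than that of hrp-1 (-0.72, adjusted p = 0.013) and with median-of-ratios scaling (-0.62, adjusted p = 0.020). The summed J2-IP values of 8 of the 10 neuronal markers that were listed were 396, 958 and 1097 in tdp-1(ok803), against 434, 655 and 459 in wild type. Their summed input values were 1176 in tdp-1(ok803) and 831 in wild type. The part of neuronal signal in the unc-75 values was not tested.

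The other neuronal regulator, exc-7, had 11, 11 and 9 in tdp-1(ok803), against 12, 11 and 13 in wild type. It did not pass as deposited (log2 difference -0.20, SE 0.13, adjusted p = 0.23 by limma) and passed as lower with equal totals (-0.53) and median-of-ratios scaling (-0.44). Values of this size are rounded to whole numbers in the deposited table, so for exc-7, fox-1 and unc-75 a step of 1 is a large part of the difference. With median-of-ratios scaling 2 of the 8 genes were higher (hrp-1, asd-1) and 3 lower (exc-7, unc-75, fox-1), where 23.1% of all genes were higher and 23.8% lower. With equal totals 1 was higher (hrp-1) and the same 3 were lower, where 13.5% of all genes were higher and 27.4% lower.

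**Figure D3:**
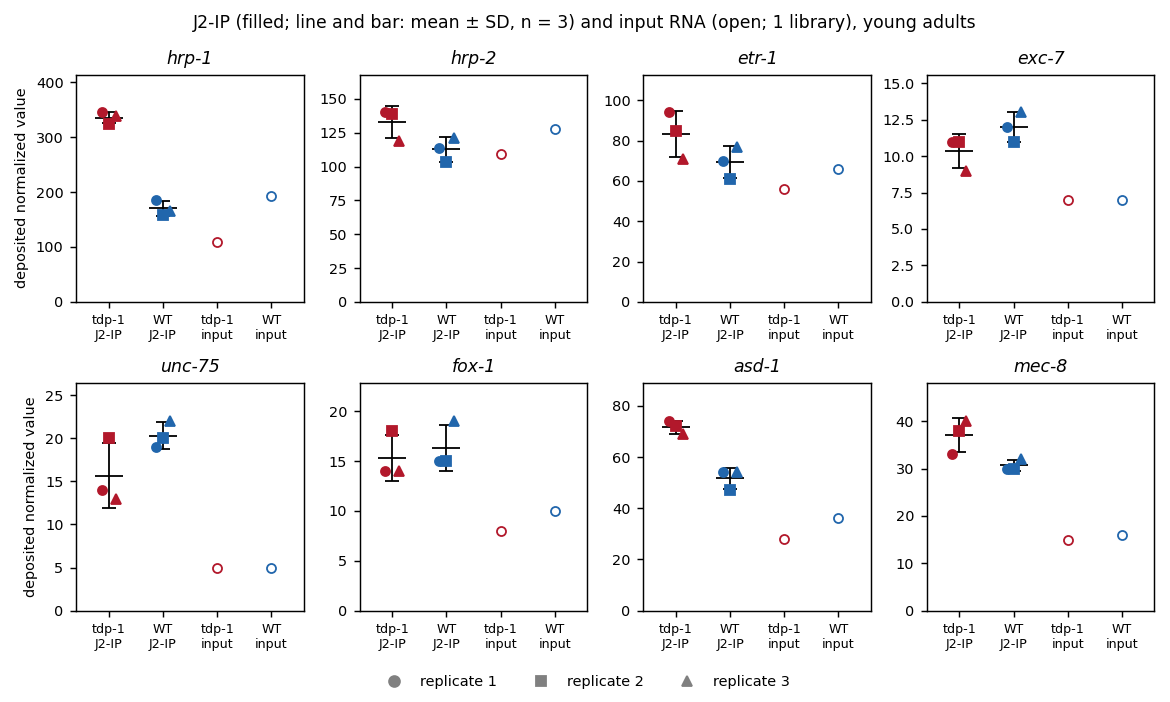
Deposited normalized values of the 8 listed genes in J2-IP (filled symbols, 3 libraries per genotype, with mean ± SD) and input RNA (open symbols, 1 library per genotype) of young adults. In each panel tdp-1(ok803) is red and wild type blue. The hrp-1 J2-IP values are 324 to 345 in tdp-1(ok803) and 159 to 186 in wild type, while its input value is 109 in tdp-1(ok803) and 192 in wild type.

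Input RNA gives the level of each transcript in the lysates before immunoprecipitation, with 1 library per genotype and therefore no test. The input value of hrp-1 was 109 in tdp-1(ok803) and 192 in wild type, a ratio of 0.568 at the 6.26th percentile of the 8352 genes with input in both. It was the only member past 1.5-fold, as were 13% of all genes in the lower direction and 7.7% in the higher. For asd-1 the input was 28 in tdp-1(ok803) and 36 in wild type, for fox-1 it was 8 against 10, for hrp-2 109 against 128 and for etr-1 56 against 66. The values were equal or nearly so for exc-7 (7 and 7), unc-75 (5 and 5) and mec-8 (15 against 16). The median ratio of all genes was 0.867, and the ratios of the other 7 members, 0.778 to 1, lay around it.

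The input values bear on the J2-IP differences because the deposited J2-IP values had been normalized to input before the study compared genotypes, by a formula not given in the sources used here. Across 7565 genes the J2-IP log2 difference and the log2 input ratio had a Pearson correlation of -0.50, a description across genes that are not independent. When each mutant J2-IP value was multiplied by the gene's input ratio, hrp-1 became 196, 184 and 192 in tdp-1(ok803), against 186, 159 and 165 in wild type, which overlap. The hrp-1 difference shrank to 0.17 (SE 0.08, adjusted p = 0.16 by limma). Across genes the SD of the J2-IP log2 difference was 0.430 as deposited and 0.431 after this step, so the step did not narrow the spread. Whether it undoes the study's normalization was not tested. For asd-1 it was 0.11 and for mec-8 0.17, and neither passed (limma adjusted p = 0.37 and 0.24). After this step 1 of the 8 genes passed, fox-1 at -0.39 (limma adjusted p = 0.091), where 17% of all genes were higher and 15.8% lower. For unc-75, whose input values were equal, the difference stayed at -0.38 (limma adjusted p = 0.13).

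**Figure D4:**
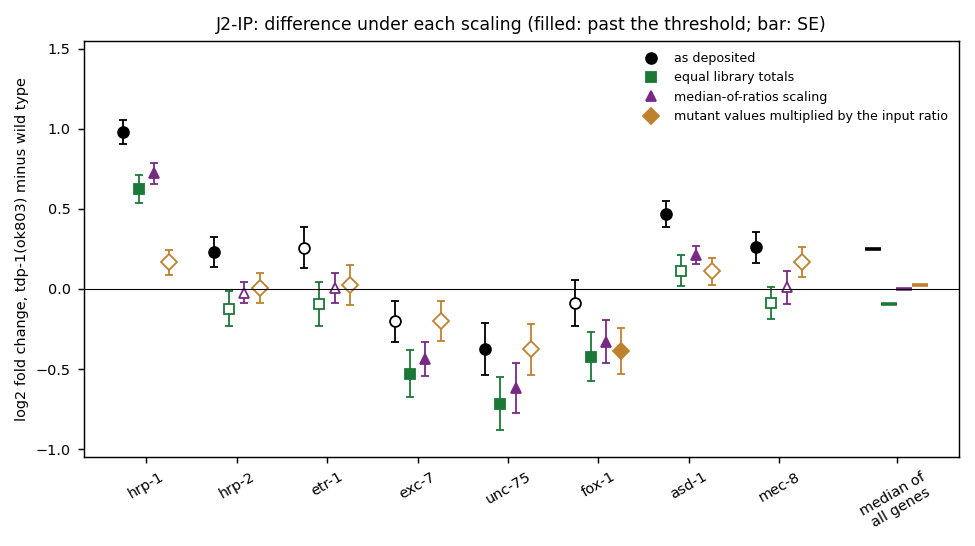
Log2 fold change of J2-IP values, tdp-1(ok803) minus wild type, for the 8 listed genes as deposited, with equal library totals, with median-of-ratios scaling and after multiplying mutant values by the input ratio. Bars are standard errors, filled symbols passed p under 0.05 and adjusted p under 0.1 (limma), and short lines on the right are medians of all genes tested. The hrp-1 difference is 0.98, 0.62, 0.72 and 0.17 in that order, and unc-75 lies below 0 throughout.

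Recovery by J2 in wild-type animals was described by the J2-IP value over the wild-type input value, a ratio in which transcript length cancels. If the normalization to input also divided the wild-type J2-IP values, these ratios count input again, and their order would be one of another quantity. All 3 replicates exceeded 1.5-fold for unc-75, mec-8 and exc-7, which is 3 of the 8 genes, against 22.8% of the 8432 genes with wild-type input. With equal library totals, and again with 10 added to both values, 2 passed, because exc-7 fell short. The ratio of unc-75 was 3.8, 4 and 4.4, with a mean of 4.07 ± 0.31 (SD, n = 3) at the 96.9th percentile, although its input value was a rounded 5. That of mec-8 averaged 1.92 ± 0.072 and that of exc-7 1.71 ± 0.14 (SD, n = 3 each).

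At the threshold without exceeding it in every replicate stood fox-1, with ratios of 1.5, 1.5 and 1.9, and asd-1 had 1.5, 1.31 and 1.5. The ratio of etr-1 was 1.05 ± 0.12, that of hrp-1 0.885 ± 0.074 and that of hrp-2 0.880 ± 0.071 (SD, n = 3 each), below the median of 1.15 of all genes. In order, unc-75 lay above every other gene in all replicates, mec-8, exc-7, fox-1 and asd-1 formed a run whose neighbours overlapped apart from mec-8 and exc-7, and hrp-1 and hrp-2 overlapped each other. Both hnRNP genes lay below the 6 tissue-specific genes in every wild-type replicate. This order was not tested, since all ratios rest on 1 input library.

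With mutant J2-IP values over mutant input, hrp-1 was at 3.17, 2.97 and 3.1 in tdp-1(ok803), against 0.969, 0.828 and 0.859 in wild type. The asd-1 ratios were 2.46 to 2.64 in tdp-1(ok803), against 1.31 to 1.5 in wild type. For unc-75 they were 2.8, 4 and 2.6 in tdp-1(ok803), against 3.8, 4 and 4.4 in wild type. If the deposited mutant values already hold the input ratio, these ratios count it again. No member was named in the deposited list of 204 A-to-I edited regions, which are regions where adenosines of double-stranded RNA are deaminated. That list names only 189 genes, beside 45642 listed for poly(A) RNA, so the absence of the members says little about them. The paper drew its edited regions from L4 animals, not young adults, and states that many introns had too few reads to assess editing.

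**Figure D5:**
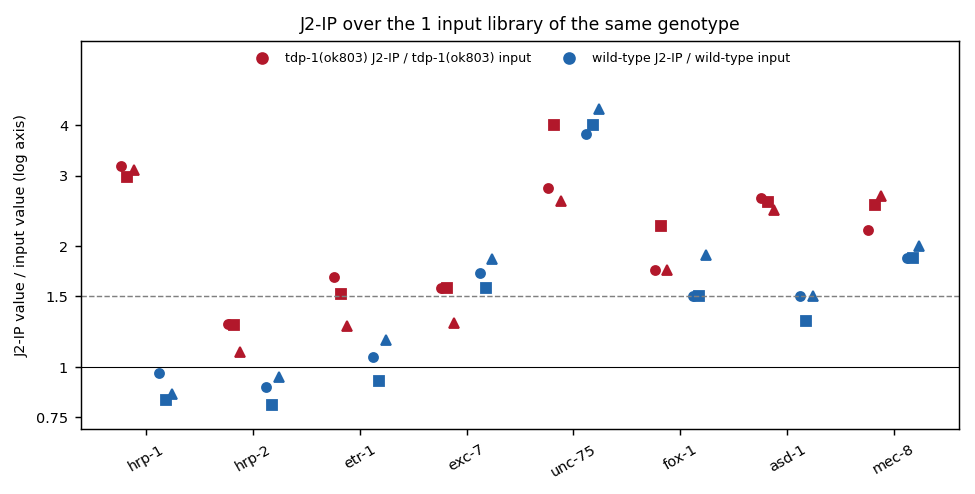
J2-IP value over the input value of the same genotype for the 8 listed genes, on a log axis, with tdp-1(ok803) in red on the left and wild type in blue on the right of each gene. Symbols mark the replicate number, each genotype has 1 input library, and the dashed line is 1.5-fold. In wild type unc-75 stands at 3.8 to 4.4, and hrp-1 and hrp-2 lie below 1.

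Of the genes most like hrp-1 in J2-IP over the 6 libraries, clec-63, F37A4.1 and cpsf-4 led with Pearson's r of 0.999 each. Within the set r with hrp-1 was highest for asd-1 (r = 0.97) and lowest for unc-75 (r = -0.75) and exc-7 (r = -0.66), as a description over shared libraries. Since hrp-1 was picked for its lowest p between genotypes, r largely restates the genotype difference of each gene.

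A list of 20 other splicing regulators gave a background for the set. In poly(A) RNA 19 were tested and 0 passed, with a median log2 difference of -0.05 against -0.02 for all genes. Over replicates 2 and 3, 1 of the 19 passed, hrpu-1, at -0.88 (limma adjusted p = 0.042), where 4.48% of all genes did. In J2-IP 17 were tested, 9 were higher and 0 lower, where 48.3% of all genes were higher and 6.12% lower. The median was 0.19 against 0.25 for all genes. Among the higher genes were smu-2, a splicing factor gene, at 0.52, tiar-1, a TIA-1-like gene, at 0.45, and uaf-2, which codes for the small subunit of U2AF, at 0.38 (limma adjusted p = 0.0013 to 0.0050 over the 3 genes). The input ratio of these 3 genes was 0.641 to 0.793, against a median of 0.867 over all genes.

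A further 12 transcripts with exons known to be chosen by these regulators were also examined at the gene level, which does not show splicing. In poly(A) RNA 0 of the 12 passed, with a median of -0.26 against -0.02 for all genes. Over replicates 2 and 3 the MEC-8 target fbn-1 was higher in the mutant-labelled libraries, at 1.4 (limma adjusted p = 0.015), and lin-10 was lower, at -0.87 (limma adjusted p = 0.039). Of all genes, 4.48% passed there. Over all 3 libraries the fbn-1 counts spread widely, with 8560 ± 7336 in the mutant-labelled libraries and 4416 ± 4817 in wild type (SD, n = 3 each, limma unadjusted p = 0.19). In J2-IP 10 were tested, 4 were higher and 1 lower, where 48.3% of all genes were higher and 6.12% lower, and the median was 0.18 against 0.25 for all genes. Higher were unc-52, a basement membrane gene spliced with MEC-8 and HRP-2, at 0.43, unc-16, a kinesin adaptor gene, at 0.33, unc-60, the SUP-12 target that codes for cofilin, at 0.64, and ret-1, a reticulon gene, at 0.18. In that order their input ratios were 0.709, 0.672, 0.762 and 0.904, against a median of 0.867 over all genes. The unc-60 J2-IP values were 378 ± 72 in tdp-1(ok803) and 240 ± 17.1 in wild type (SD, n = 3 each). In J2-IP fbn-1 was lower, with 65.3 ± 3.06 in tdp-1(ok803) and 81 ± 1 in wild type (SD, n = 3 each), a log2 difference of -0.31 (limma adjusted p = 0.0087).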

How the data were processed

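The authors deposited poly(A) values as a signal, normalized counts per gene that are gene counts divided by library size factors, and J2-IP and input values as a score, normalized counts rounded to whole numbers, the J2-IP ones normalized to input. Reads were aligned to WS220; the submitters' processing notes name TopHat2 2.0.10, Bowtie2 2.1.0, HTSeq 0.5.4p3 and DESeq 1.16. All poly(A) values (100%) were whole multiples of 1 read within 0.05 reads, so that read numbers were recovered. The deposited list of edited regions, with other columns, was used for its gene names only.

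Members and lists were chosen with earlier results of these data known. Tests were limma 3.58.1 (R 4.3.3) on log2(value + 1) with a trend and Benjamini-Hochberg adjustment over all genes, for poly(A) genes that reached 10 normalized counts in at least 3 libraries and J2-IP genes with a mean of at least 5. Fold changes are on the log2(value + 1) scale and understate those of low genes. Poly(A) calls used an adjusted p of 0.05, J2-IP calls a p of 0.05 and an adjusted p of 0.1, and input ratios a fold of 1.5. On simulated data the poly(A) step recovered 100% of 200 changed genes among 15695, with 9 false calls. The J2-IP step recovered 100% of 200 among 7692, with 6 false calls. The median log2 difference recovered was 2.02 in the poly(A) step and 1.99 in the J2-IP step. Changed genes were drawn from those above the median level, and calls in both steps used an adjusted p of 0.05. The simulated libraries were independent, without the shared deviation of replicate 1 in poly(A) RNA or the general shift of J2-IP values. The recovery therefore does not carry over to the real libraries. Recovery of smaller differences, such as those of the 9 genes, was not tested. The paper speaks of 2 independent biological replicates per genotype for its poly(A) comparison, while 3 libraries of each are deposited and analysed, and no label names separate cultures, so p-values measure the spread between these libraries, which may be technical. Samples with the same replicate number deviated together in every pair (r = 0.35 to 0.66 in poly(A), 0.37 to 0.73 in J2-IP). Correlations between different numbers were not computed, so it is not shown that the numbers pair the libraries. J2-IP genes were joined to input by sequence name (8600 of 8783). Edited-site positions, ChIP peaks and total RNA were not used here.

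Named genes were the 9 members, tdp-1, up to 4 genes of lowest p that passed in each of 2 lists per comparison, and the 3 genes most correlated with the member of lowest p; ret-1, hrpu-1 and lin-10, and fbn-1 over poly(A) replicates 2 and 3, were added after their values were seen. One gene that this rule names is not reported here. Alternatives were edgeR 4.0.16 and DESeq2 1.42.0 on the recovered reads, another pseudocount, filter or scaling, a replicate block and leaving out libraries.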

Additional observations from a re-analysis of the deposited data

Results flagged for a closer look

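The hrp-1 values moved in opposite directions in input RNA and in the J2-IP. The input value was lower in tdp-1(ok803), with a ratio of 0.568 to wild type, while each of the 3 mutant J2-IP libraries exceeded each wild-type library. In J2-IP the genotypes did not overlap for 53.5% of the genes tested. Across 7565 genes the J2-IP log2 difference and the log2 input ratio had a Pearson correlation of -0.50. After multiplying mutant values by the input ratio, the hrp-1 difference was 0.17 (limma adjusted p = 0.16). The difference between the assays was not tested, because each genotype has 1 input library, and the deposited J2-IP values had been normalized to input.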

How the results depend on the processing

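No member passed in poly(A) RNA under any alternative run, by edgeR's quasi-likelihood test and DESeq2 on recovered reads included. The sign of 2 small differences turned there: hrp-1 was 0.028 by edgeR and 0.0091 by DESeq2, and unc-75 was -0.0024 and -0.019. Leaving out poly(A) libraries gave ranges of -0.49 to 0.10 for hrp-1, -0.33 to 0.20 for hrp-2, -0.015 to 0.32 for sup-12, -0.12 to 0.17 for etr-1, -0.34 to -0.026 for exc-7, -0.28 to 0.53 for unc-75, -0.078 to 0.31 for fox-1, -0.19 to 0.086 for asd-1 and -0.073 to 0.16 for mec-8. The replicate block, which assumes pairing by number, left 0 members called in poly(A) RNA and the same count of 5 in J2-IP, and changed no call.

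The number of members called in J2-IP was 5. It was 3 with a filter on enrichment over wild-type input, where 1698 of 3843 genes were called higher and 297 lower. That filter did not keep hrp-2 and etr-1. The number was 1 after multiplying mutant values by the input ratio, where 17% of all genes were higher and 15.8% lower. Without 1 library it was 2 to 4, where 3192 to 3827 genes were higher and 336 to 508 lower, of 7737 to 7785 tested. The enrichment filter kept genes past 1.5-fold in either genotype, without the study's test. Through the mutant alone hrp-1 and asd-1 passed it, since their mean wild-type ratios were 0.885 and 1.44. Their calls under that filter are therefore no separate support. With equal totals hrp-2 turned to -0.12, etr-1 to -0.094 and mec-8 to -0.088, and by median-of-ratios scaling hrp-2 was -0.023. Without 1 library fox-1 ranged between -0.20 and 0.021. At a fold of 2 in place of 1.5, 1 member (unc-75) passed in wild-type J2-IP over input, against 10.5% of 8432 genes. In input 0 members passed at that fold, where the 5th and 95th percentiles of the ratio over all genes were 0.538 and 2. The split of all called J2-IP genes was 88.8% higher as deposited, 33% with equal totals and 49.2% by median-of-ratios scaling. Over all genes, poly(A) RNA gave 0 calls by limma, 0 by edgeR, 17 by DESeq2, 1 with the block and 685 over replicates 2 and 3.

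J2-IP and input values carry no read depth, and no counting error was set on them, and rounding limits values near 5.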
